A study of Mus musculus with 7 samples.

Results

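The regions described here are places in the mouse genome where the vitamin D receptor (VDR) gave no peak with hormone but did with vehicle. Peaks of 6 chromatin immunoprecipitation (ChIP-seq) libraries on chromosomes 1 to 19 and X were merged wherever they overlapped by 1 bp or more. Regions were chosen by the presence of called peaks, a measured value, and a merged region was kept when at least 2 of the 3 vehicle lists held a peak in it and none of the 3 1,25(OH)2D3 lists did. The rule kept 410 of 86995 merged regions (0.471%), called vehicle-only regions below, of which 26 (0.0299%) lay in all 3 vehicle lists. Both groups were wild-type mice on standard chow, 8 weeks old. Hormone-treated mice were given 10 ng of 1,25(OH)2D3 (active vitamin D) per g body weight, and control mice were given vehicle. Duodenum and jejunum were taken 1 h later, and the epithelium was shed with EDTA before ChIP. Whether the 3 libraries of a group stand for separate mice is not given in the labels.

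VDR is a nuclear receptor that binds DNA as a heterodimer with the retinoid X receptor (RXR). Its usual element, the DR3, is a direct repeat of a hexamer with a short spacer. The hormone strengthens the binding of the heterodimer to DNA and its exchange of corepressors for coactivators, while part of the receptor already sits on DNA without hormone. In the small intestine the receptor is best known for the genes of active calcium absorption in enterocytes.

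Peaks were counted as present or absent, since the deposited lists give no tag counts per peak and the same score for every peak. The membership of these regions is therefore the rule itself and was not tested. The 1,25(OH)2D3 libraries held 17152461, 17438643 and 66524392 tags and 25510, 30390 and 41722 peaks (replicates 1, 2 and 3). The vehicle libraries held 19733260, 15991198 and 68560701 tags and 8756, 14888 and 48425 peaks. Vehicle replicate 3 was thus the longest list, and vehicle replicates 1 and 2 were the shortest. Per the file headers, 11.86%, 15.89% and 18.96% of tags were in peaks with hormone, and 2.58%, 4.81% and 8.10% with vehicle. Comparison with the input removed 50.7%, 43.4% and 63.2% of putative peaks with hormone, and 77.5%, 61.5% and 65.3% with vehicle. Chromosome Y was not used. All 10 enterocyte marker genes had a region of at least 2 vehicle lists within 50 kb, against 49.0% of all protein-coding genes. The same held for 3 of 4 goblet cell, 2 of 4 immune and 2 of 4 stromal markers.

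The sequences below, read from build NCBI 37 (mm9), are shown because they stand for the ends of the set: the vehicle-only regions of all 3 vehicle lists that stood highest in those lists, and those with an exact DR3 match. Each reaches 100 bp to both sides of the region's centre, or is its longest stretch outside annotated UTRs and coding exons. In the first set, capitals mark exact matches on either strand to motifs of GATA factors, AP-1, HNF4, ETS factors, the GC box and NRF1, and to the receptor hexamers AGGTCA and AGTTCA. The letters of the other motifs are given with their counts.
Slc33a1, promoter, chr3:63768691-63768762, + strand: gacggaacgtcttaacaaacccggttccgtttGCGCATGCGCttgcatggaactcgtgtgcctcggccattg
Hist1h4c, promoter, chr13:23790324-23790493, + strand: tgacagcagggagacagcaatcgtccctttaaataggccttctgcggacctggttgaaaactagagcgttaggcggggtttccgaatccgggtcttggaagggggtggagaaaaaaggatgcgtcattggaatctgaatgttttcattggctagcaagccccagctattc
Timm10, promoter, chr2:84666975-84667153, + strand: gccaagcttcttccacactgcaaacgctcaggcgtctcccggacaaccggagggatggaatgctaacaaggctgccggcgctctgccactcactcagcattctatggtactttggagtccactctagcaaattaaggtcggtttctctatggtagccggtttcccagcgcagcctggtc
Zfp36l1, promoter, chr12:81214001-81214181, + strand: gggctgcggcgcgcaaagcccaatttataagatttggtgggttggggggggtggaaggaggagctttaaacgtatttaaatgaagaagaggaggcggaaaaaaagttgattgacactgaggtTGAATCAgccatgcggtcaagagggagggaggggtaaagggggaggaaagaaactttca
Mgst2, alternative start, chr3:51475189-51475389, + strand: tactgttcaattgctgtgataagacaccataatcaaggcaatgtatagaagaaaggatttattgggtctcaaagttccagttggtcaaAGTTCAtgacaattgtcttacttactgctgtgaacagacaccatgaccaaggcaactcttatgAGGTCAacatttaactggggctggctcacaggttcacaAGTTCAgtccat
Apoh, nearest start, in an intron of Prkca, chr11:108168498-108168698, + strand: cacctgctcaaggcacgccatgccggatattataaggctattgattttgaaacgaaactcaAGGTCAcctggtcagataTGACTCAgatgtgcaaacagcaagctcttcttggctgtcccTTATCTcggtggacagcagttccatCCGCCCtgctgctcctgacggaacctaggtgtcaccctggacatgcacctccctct
Elovl6, intron, chr3:129291602-129291802, + strand: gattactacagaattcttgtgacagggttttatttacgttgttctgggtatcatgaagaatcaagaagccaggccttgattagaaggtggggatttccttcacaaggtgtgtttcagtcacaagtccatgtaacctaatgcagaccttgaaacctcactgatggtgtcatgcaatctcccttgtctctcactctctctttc
Ppara, intron, chr15:85597201-85597401, + strand: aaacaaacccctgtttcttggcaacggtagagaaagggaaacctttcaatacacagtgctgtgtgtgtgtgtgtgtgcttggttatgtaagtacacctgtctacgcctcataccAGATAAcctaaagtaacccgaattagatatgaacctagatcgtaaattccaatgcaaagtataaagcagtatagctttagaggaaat

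In the regions with a DR3 of 0 mismatches, capitals mark that DR3 alone. A further such region, nearest to Gata6, is described later without its sequence.
Unc50, nearest start, in an intron of Mgat4a, chr1:37537635-37537835, + strand: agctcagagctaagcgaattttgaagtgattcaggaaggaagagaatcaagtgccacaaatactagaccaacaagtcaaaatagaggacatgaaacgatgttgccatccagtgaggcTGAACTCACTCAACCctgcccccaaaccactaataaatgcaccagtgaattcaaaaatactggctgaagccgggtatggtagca
Clic5, intron, chr17:44339166-44339366, + strand: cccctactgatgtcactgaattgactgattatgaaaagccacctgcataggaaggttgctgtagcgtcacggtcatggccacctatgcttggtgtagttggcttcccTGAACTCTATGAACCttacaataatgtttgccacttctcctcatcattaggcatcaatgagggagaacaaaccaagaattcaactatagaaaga
Zfp697, downstream of the start, chr3:98186851-98187051, + strand: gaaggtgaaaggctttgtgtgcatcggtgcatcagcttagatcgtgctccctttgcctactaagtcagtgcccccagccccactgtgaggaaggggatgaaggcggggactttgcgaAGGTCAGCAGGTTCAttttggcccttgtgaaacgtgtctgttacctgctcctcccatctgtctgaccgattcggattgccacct

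The windows of all 3 vehicle lists that lay at promoters, of Slc33a1, Hist1h4c, Timm10 and Zfp36l1, held no exact receptor hexamer in the stretch printed. The Slc33a1 and Timm10 windows each held an ETS match in the part left out as UTR. Those in introns or at an alternative start differed among themselves. The Mgst2 window held 3 receptor hexamers, the Apoh window held a GATA, an AP-1, a GC-box and a receptor hexamer match, and the Elovl6 window held none of the motifs marked.

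With the full lists, few of the regions that vehicle libraries shared were missing with hormone. The vehicle-only regions were 3.89% of the 10532 regions in at least 2 vehicle lists, and 0.56% of the 4640 regions in all 3. In the opposite direction, 10733 regions (12.3% of all) had a peak in at least 2 hormone lists and none with vehicle, which was 38.1% of the 28190 regions in at least 2 hormone lists. Of these, 4687 (5.39% of all) lay in all 3 hormone lists. The lists differ in length between the groups. With every list cut to the length of the shortest, 1130 regions met the rule and 1472 met the opposite one. In that setting 5730 regions were in at least 2 vehicle lists and at least 1 hormone list. The part of list length in these counts was not tested beyond this and the settings given in the closing section.

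At the edge of the rule, 384 regions lay just inside, with peaks in exactly 2 vehicle lists. Just outside it were 575 regions with at least 2 vehicle peaks and 1 hormone peak, and 35048 regions with 1 vehicle peak and none with hormone. Of the 575, the lone hormone peak came from replicate 3 in 276 regions (48.0%), from replicate 2 in 188 and from replicate 1 in 111. The shares followed the number of peaks in the hormone lists.

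By library, 194 of the 410 regions (47.3%) had peaks in vehicle replicates 2 and 3, 112 (27.3%) in replicates 1 and 2, 78 (19.02%) in replicates 1 and 3, and 26 (6.34%) in all 3. The 112 regions of replicates 1 and 2 had no peak in vehicle replicate 3, which was the most deeply sequenced vehicle library and had the longest list. The regions were 261 to 533 bp wide, with a median of 334 bp, and had representatives on every chromosome used.

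Where a region stood in a vehicle list was given as a list percentile, 100 for the first peak of that list and 0 for the last. It is a position in the authors' list and not an occupancy. The vehicle-only regions stood low in the short lists and high in the long one. Their median list percentile was 22.0 in vehicle replicate 1 (216 regions), 29.5 in replicate 2 (332 regions) and 75.9 in replicate 3 (298 regions). Regions shared with hormone, meaning at least 2 vehicle and at least 1 hormone lists, had medians of 59.8, 62.8 and 87.4 in the same lists. In each of the 3 lists the vehicle-only regions thus had the lower median, with wide overlap.

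**Figure D1:**
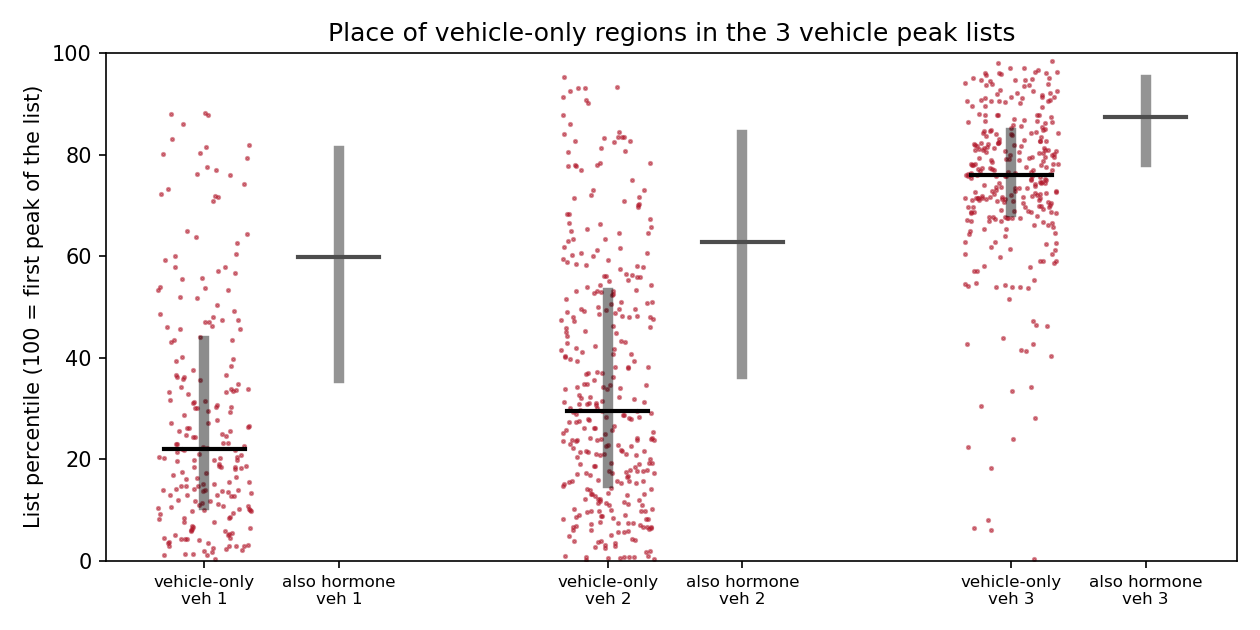
List percentile (0 to 100, 100 for the first peak) of vehicle-only regions in vehicle replicates 1, 2 and 3. Points are single vehicle-only regions, thick bars the middle 50% and lines the medians, with the shared regions to the right of each. The medians of vehicle-only regions (22.0, 29.5 and 75.9) lie below those of regions also found with hormone (59.8, 62.8 and 87.4).

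Averaged over the vehicle lists that held it, a vehicle-only region had a median percentile of 45.7 (quartiles 31.5 and 64.4, range 0.467 to 95.5), against 70.3 for shared regions. The 575 regions just outside the rule, with 1 hormone peak, had a median of 48.8. It was 58.0 for regions with 2 hormone peaks and 73.5 for those with 3, and regions of 1 vehicle list alone had 33.3. The mean depends on which lists held a region, since the lists' medians differ. Its median was 53.8 for regions of replicates 2 and 3, 42.4 for replicates 1 and 3 and 24.4 for replicates 1 and 2, and leaving out vehicle replicate 3 altogether gave 25.0. In all, 55 vehicle-only regions (13.4%) had a mean of 75 or more, of which 33 were of replicates 2 and 3, 10 of replicates 1 and 3, 5 of replicates 1 and 2 and 7 of all 3. Shared regions with such a mean numbered 4294, so they far outnumbered the vehicle-only regions there.

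The 26 regions of all 3 vehicle lists ranged from a mean percentile of 93.2 to 17.2, with a median of 44.8. The first was at the start of Slc33a1, which encodes the acetyl-CoA transporter of the endoplasmic reticulum (chr3:63768511-63768812, centre 0.028 kb downstream of the start). It stood at percentiles 88.1, 95.3 and 96.1 in vehicle replicates 1, 2 and 3, and the nearest hormone peak was 35.1 kb away. No other region of the 26 was as high in all 3 lists.

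The second was at an alternative start of Mgst2, a microsomal glutathione transferase (chr3:51475136-51475442), at 79.4, 93.0 and 95.03, with a hormone peak 0.282 kb away. The third lay 0.07 kb upstream of the histone H4 gene Hist1h4c (chr13:23790202-23790583), at 87.9, 83.4 and 92.1. Next came a region 0.079 kb upstream of Timm10, a chaperone of mitochondrial protein import (chr2:84666909-84667241), at 64.4, 82.5 and 96.3. All 3 stood above the median of each vehicle list. The nearest hormone peak was 4.09 kb from the Hist1h4c region and 0.404 kb from the Timm10 region.

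Intronic regions came next. The region nearest to the start of Apoh, a phospholipid-binding plasma protein, lay in an intron of Prkca (chr11:108168442-108168753) and stood at 64.96, 77.8 and 94.6. An intron of Elovl6, which encodes a fatty acid elongase, held a region at 76.2, 67.3 and 91.3 (chr3:129291509-129291895). Another lay in an intron of Ppara, the nuclear receptor that drives fatty acid oxidation (chr15:85597094-85597508), at 56.7, 82.7 and 93.8. Each of these had a hormone peak nearby, at 1.04, 2.79 and 1.90 kb, in a region found in all 3 hormone lists.

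The eighth lay 0.081 kb upstream of Zfp36l1, which encodes an mRNA decay protein (chr12:81213821-81214341), at 63.8, 55.0 and 97.0. The other 18 were nearest to Ugdh, Trim29, Prss27, 4933407C03Rik, Ttc32, Tigd4, Prdx6, Capn13, 9430038I01Rik, Mrps28, Snx29, D630004N19Rik, Mme, Spty2d1, Mgat5, Rps23, Cdkn1c and Clec14a. None of these 18 lay within 1 kb of a start, and their mean percentiles ran from 68.7 at Ugdh to 17.2 at Clec14a. Farthest from any hormone peak among the 26 were the regions nearest to Clec14a (68.1 kb), Rps23 (53.1 kb), Slc33a1 (35.1 kb), Mme (15.7 kb) and Spty2d1 (14.9 kb). Apart from Slc33a1, those regions stood low, with mean percentiles of 17.2 to 30.4.

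Regions of exactly 2 vehicle lists reached similar positions. In vehicle replicates 2 and 3 the highest was in an intron of Pip5k1b, a phosphatidylinositol phosphate kinase (chr19:24594266-24594573), at 92.5 and 98.4. It was followed by promoter regions of Polq, which encodes a repair DNA polymerase (93.3 and 95.6), Gorab, a Golgi protein (93.1 and 94.9), and Rbm25, a splicing factor (90.8 and 97.0). The fifth, nearest to Trim14 and in an intron of Coro2a, stood at 90.2 and 96.6. The Gorab region (chr1:165333762-165334064) was 84.6 kb from any hormone peak, and the Trim14 region (chr4:46571667-46571990) 0.137 kb.

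In replicates 1 and 3 high regions were the promoter of the zinc finger gene Zbtb40 (86.1 and 94.6), a region nearest to Fahd1 in an intron of Hagh (83.0 and 96.0), an intron of the phosphatase gene Ptpn2 (81.9 and 96.0) and the promoter of the ubiquitin ligase gene Trim31 (73.2 and 93.6). In replicates 1 and 2 they were the promoter of the DNA damage mediator gene Mdc1 (81.4 and 91.3) and regions nearest to the mitochondrial import receptor gene Tomm20 (76.0 and 87.8), the G protein gene Gna11 (80.3 and 74.99), 2210021J22Rik (80.2 and 72.9) and the chemokine gene Ccl20 (71.5 and 80.6). The 2210021J22Rik region was also in an intron of Ppara, so that gene held a region of all 3 vehicle lists and one of replicates 1 and 2. None of these last 5 had a peak in vehicle replicate 3, the deepest vehicle library. The nearest hormone peaks lay 7.21, 2.61, 0.183 and 0.191 kb from the Zbtb40, Fahd1, Ptpn2 and Trim31 regions. From the last 5, in the order named, they lay 11.1, 0.181, 1.00, 0.126 and 0.548 kb away.

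Hormone peaks were seldom far away. The median distance from a vehicle-only region to the nearest peak of any hormone list was 3.41 kb. It was under 0.2 kb for 28 regions (6.83%), under 0.5 kb for 59 (14.4%), under 1 kb for 108 (26.3%) and under 10 kb for 317 (77.3%, 95% Wilson interval 73.0 to 81.1). Regions of 1 vehicle list alone lay at a median of 22.4 kb, with 32.6% within 10 kb, and the figure depended on the library: 3.22 kb for vehicle replicate 1 alone, 3.20 kb for replicate 2 alone and 26.3 kb for replicate 3 alone. The same distance from hormone-only regions to a vehicle peak was 7.31 kb, with 61.5% within 10 kb. Differences between classes of regions were not tested, here or below.

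The authors' caller reported no 2 peaks of a list closer than 566 to 576 bp with hormone and 510 to 560 bp with vehicle, per the file headers. The centre of 34 vehicle-only regions (8.29%) lay closer than that to the centre of a peak in at least 1 hormone list, and that of 17 (4.15%) in all 3. In such a place the list could hold no further peak, and the part of this spacing in their absence was not tested. The nearest region with a hormone peak was in all 3 hormone lists for 188 vehicle-only regions (45.9%) and in all 6 lists for 54 (13.2%). It had no vehicle peak for 213 (52.0%). At the far end, 4 regions were over 100 kb from a hormone peak, nearest to Gphn, BC002059, Gm7293 and A530032D15Rik, at 119.9 to 248.5 kb.

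By position in genes, 65 vehicle-only regions (15.9%, interval 12.6 to 19.7) had their centre within 1 kb of an annotated transcription start, 178 (43.4%) lay in introns, 7 (1.71%) in exons and 160 (39.0%) between genes. The share at starts was 14.4% for shared regions, 19.8% for hormone-only regions, 5.08% for regions of 1 vehicle list and 11.4% for all regions. Of the 65 starts, 58 were of protein-coding genes. The median distance to the nearest protein-coding start was 17.7 kb, and 53 regions (12.9%) were over 100 kb from one. Regions of 1 vehicle list differed by library, with 15.3% at starts for vehicle replicate 1 alone, 17.6% for replicate 2 alone and 4.01% for replicate 3 alone, which made up 32150 of the 35048. The interval of the vehicle-only share thus included the shares of shared regions and of regions of replicate 1 or 2 alone, and lay above that of replicate 3 alone.

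Place in the vehicle lists went with place in genes. Of the 73 vehicle-only regions with a mean percentile under 25, 5 (6.85%) were at starts. The counts were 12 of 159 (7.55%) from 25 to 50, 21 of 123 (17.1%) from 50 to 75, and 27 of 55 (49.1%, interval 36.4 to 61.9) from 75. Shared regions had 10.2%, 7.13%, 12.6% and 19.5% in the same bins. Near the top by mean percentile, then, promoters were about as many as all other places together. Within single lists the share at starts was also larger toward the top. In vehicle replicate 1 it was 7.56% of 119 vehicle-only regions under percentile 25 and 42.9% of 14 from 75, and in replicate 2 it was 6.29% of 143 and 48.3% of 29. In replicate 3, where 7 regions were under 25 and none of them at a start, it was 5.08% of 118 from 50 to 75 and 27.5% of 160 from 75. Shared regions had 20.4%, 17.8% and 16.0% from 75 in replicates 1, 2 and 3.

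**Figure D2:**
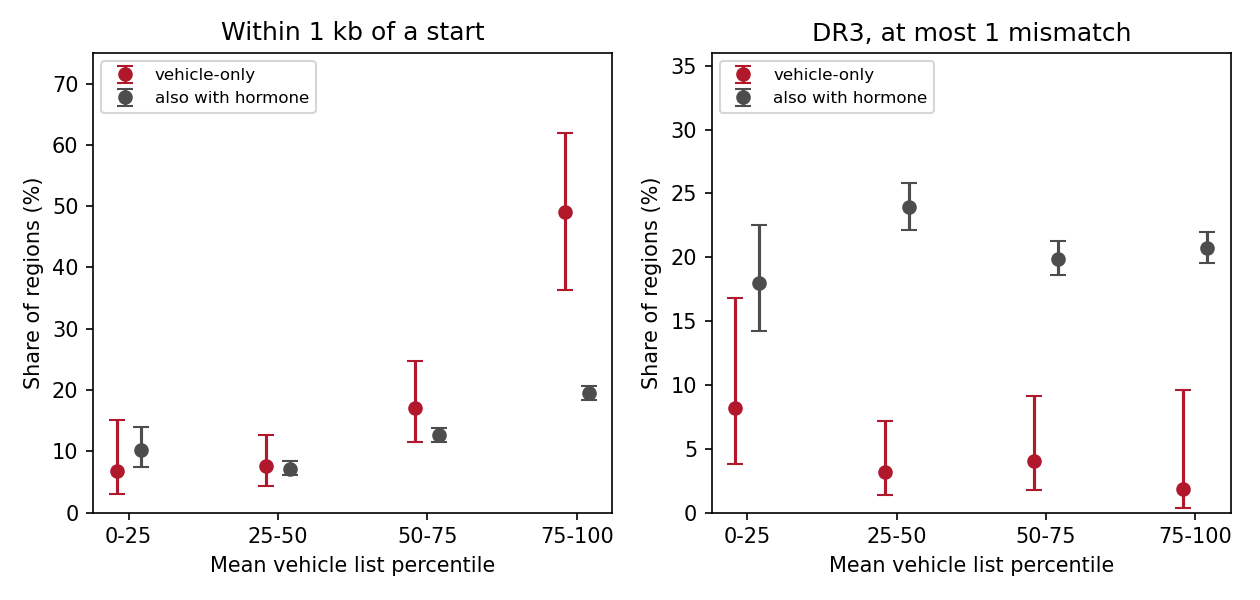
Share of regions (%) within 1 kb of a transcription start (left) and with a DR3 of at most 1 mismatch (right), by mean vehicle list percentile. Red points are vehicle-only regions, grey points shared regions, and bars 95% Wilson intervals. In the bin from 75 to 100, starts made up 49.1% of vehicle-only and 19.5% of shared regions, and the DR3 was in 1.82% and 20.7%.

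These 27 high promoter regions included those of Slc33a1, Hist1h4c, Timm10, Polq, Gorab, Rbm25, Zbtb40, Mdc1 and Trim31. None of the 27 held a DR3 with at most 1 mismatch, and 11 held the ETS motif. Of the other 28 regions with a mean of 75 or more, 1 held a DR3 and none held the ETS motif. Their distances to a hormone peak also differed. Of the promoter regions, 8 (29.6%) were more than 10 kb from any hormone peak, and of the other 28 none was. The median distance was 4.32 kb at promoters and 1.23 kb elsewhere. Within 1 kb of a hormone peak lay 10 of the 27 promoter regions (37.0%) and 12 of the other 28 (42.9%). Over all vehicle-only regions, whatever their percentile, the order was the reverse. Those at starts had a median of 2.18 kb, with 43.1% within 1 kb and 18.5% over 10 kb. Those elsewhere had a median of 3.59 kb, with 23.2% within 1 kb and 23.5% over 10 kb. This split of the 55 was chosen after the values were seen and was not tested.

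With all peaks of every list and 1 mismatch allowed, the DR3 was about as frequent in the vehicle-only regions as in nearby sequence. With at most 1 mismatch, within 100 bp of the centre and on either strand, it was in 17 of 410 regions (4.15%, interval 2.60 to 6.54) and in 16 of the windows of the same width 5 kb to the right (3.90%). Among regions of at least 2 vehicle lists, the share was 4.15% with no hormone peak, 6.96% with 1 (40 of 575), 9.38% with 2 (114 of 1215) and 23.6% with 3 (1969 of 8332). Their shifted windows stayed between 3.90% and 4.49%. Hormone-only regions had 17.5%, regions of 1 vehicle list 4.24% and all regions 10.9%. The more hormone lists held a region, the more often it had the element.

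The share depended on list length and on mismatches. With every list cut to the length of the shortest, the rule chose 1130 regions, and 98 of them held a DR3 (8.67%, interval 7.17 to 10.5), against 47 of their shifted windows (4.16%). Shared regions had 23.0% and hormone-only regions 17.2% in that setting. Of the 1130 regions, 1013 had a peak in at least 1 full hormone list, and 94 of those held a DR3 (9.28%), while 4 of the other 117 did (3.42%). With 0 mismatches and full lists, 4 vehicle-only regions (0.976%) held a DR3, against 1 shifted window (0.244%), 3.84% of shared and 2.50% of hormone-only regions.

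**Figure D3:**
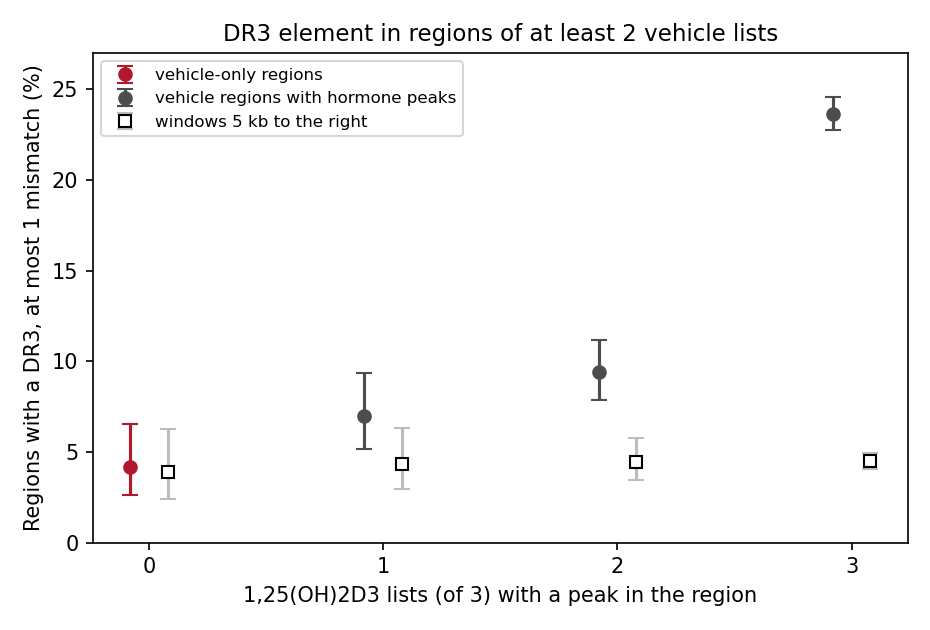
Share of regions in at least 2 vehicle lists that hold a DR3 with at most 1 mismatch (%), by the number of 1,25(OH)2D3 lists with a peak there. Circles are the regions (red for vehicle-only), open squares windows 5 kb to the right, and bars 95% Wilson intervals. The regions go through 4.15%, 6.96%, 9.38% and 23.6%, while the shifted windows stay between 3.90% and 4.49%.

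By mean list percentile the DR3 share was lower in vehicle-only than in shared regions in every bin. By mean percentile, a DR3 was in 6 of 73 (8.22%), 5 of 159 (3.14%), 5 of 123 (4.07%) and 1 of 55 (1.82%) vehicle-only regions, from the lowest bin to the highest. Shared regions had 18.02%, 23.9%, 19.9% and 20.7% in those bins. It was in 3 of 65 regions at starts (4.62%) and 14 of 345 elsewhere (4.06%).

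With 0 mismatches the element was in 4 vehicle-only regions. In 3 of them it read GGTTGAgtgAGTTCA in an intron of Mgat4a nearest to Unc50 (chr1:37537752-37537766, minus strand), GGTTCAtagAGTTCA in an intron of the chloride channel family gene Clic5 (chr17:44339273-44339287, minus strand) and AGGTCAgcaGGTTCA at Zfp697 (chr3:98186968-98186982, plus strand), with the spacer in lower case. Their mean percentiles were 44.4, 18.9 and 9.35, so none stood high in the vehicle lists. Hormone peaks lay 5.08 kb from the Unc50 region, 0.472 kb from the Clic5 region and 0.983 kb from the Zfp697 region.

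With 1 mismatch, regions high in the lists included one in an intron of Ypel2, at a mean of 70.9, where the site read AGGTCAgaaAGCTGA, and one at the start of Fbxw5 (70.5, AGATGAcacAGGTGA). Among the 26 regions of all 3 vehicle lists, 1 held such a site, the one nearest to Clec14a, an endothelial lectin gene (GGTTCAtaaATTTCA), which stood lowest of the 26. A match is a stretch of letters and not a measured site.

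The remaining region with a DR3 of 0 mismatches was nearest to Gata6, an intestinal transcription factor gene (chr18:10937427-10937844). It stood at 31.2 and 75.7 in vehicle replicates 2 and 3. A hormone peak, of a region in all 3 hormone lists, lay 0.151 kb away.

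Single receptor hexamers were more common than in the shifted windows but less common than in regions with hormone peaks. The hexamer AGGTCA was in 88 vehicle-only regions (21.5%, interval 17.8 to 25.7), in 11.95% of their shifted windows, in 32.8% of shared regions, in 31.2% of hormone-only regions and in 21.7% of all regions. For AGTTCA, a variant of it, the shares were 20.5%, 15.1%, 31.6%, 27.5% and 22.4%. Both hexamers can be part of a DR3, so these counts overlap those above.

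Over all 410, motifs of intestinal transcription factors were found about as often as in shared regions. The GATA motif AGATAA was in 89 vehicle-only regions (21.7%, interval 17.99 to 26.0), against 10.7% of shifted windows, 25.4% of shared regions, 17.8% of hormone-only regions and 18.4% of all regions. The GATA share depended on the libraries. It was 28.4% (55 of 194) in regions of vehicle replicates 2 and 3, but 15.2% (17 of 112) in those of replicates 1 and 2, and 11.5% (9 of 78, interval 6.19 to 20.5) in those of replicates 1 and 3, as in their shifted windows. The HNF4 motif CAAAGTCCA was in 13 (3.17%, interval 1.86 to 5.35), against 0.244% of shifted windows, 2.86% of shared, 2.48% of hormone-only and 1.57% of all regions. The AP-1 motif TGANTCA was in 47 (11.5%), against 5.85%, 14.5%, 12.7% and 10.9% in the same order. For these motifs the vehicle-only share was above that of the shifted windows. The DR3 was in 1 more region than shifted window with at most 1 mismatch, and in 4 regions against 1 with 0 mismatches, the setting of the other motifs. The HNF4 regions included one 58.5 kb upstream of Apob, the structural protein of chylomicrons (77.8 and 91.3 in vehicle replicates 2 and 3), and that at the start of Trim31.

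**Figure D4:**
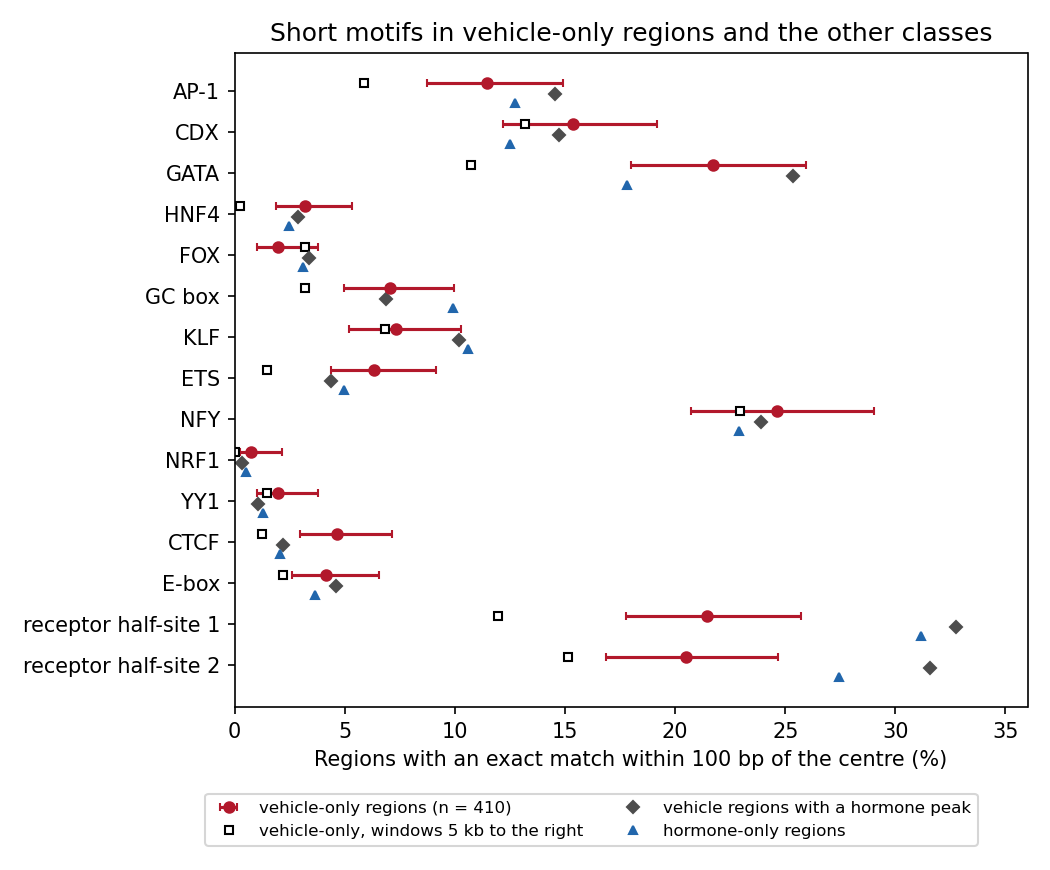
Share of regions (%) with an exact match to each motif within 100 bp of the centre. Red circles with 95% Wilson intervals are the 410 vehicle-only regions, open squares their windows 5 kb to the right, grey diamonds shared regions and blue triangles hormone-only regions. Receptor hexamer 1, AGGTCA, was in 21.5% of vehicle-only and 32.8% of shared regions, and hexamer 2, AGTTCA, in 20.5% and 31.6%.

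Promoter motifs were concentrated in the regions at starts. The ETS motif CCGGAA was in 26 vehicle-only regions (6.34%), against 1.46% of shifted windows, 4.39% of shared regions, 4.98% of hormone-only regions and 3.26% of all regions. It was in 16 of the 65 regions at starts (24.6%) and in 10 of the 345 others (2.90%). At starts, shared regions had it in 13.4% and hormone-only regions in 12.9%. The GC box GGGCGG was in 17 of 65 at starts (26.2%) and 12 of 345 elsewhere (3.48%). It was in 7.07% of all vehicle-only regions, 3.17% of their shifted windows and 5.43% of all merged regions. The GATA motif had the other pattern, with 9 of 65 (13.8%) at starts and 80 of 345 (23.2%) elsewhere. The other classes had the same splits. At starts and elsewhere, the GC box was in 22.4% and 4.27% of shared and 30.7% and 4.82% of hormone-only regions. The GATA motif was in 13.5% and 27.3% of shared and 8.44% and 20.1% of hormone-only regions.

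The CTCF motif, of the insulator protein, was in 19 vehicle-only regions (4.63%, interval 2.99 to 7.12), against 1.22% of shifted windows, 2.18% of shared, 2.06% of hormone-only and 2.25% of all regions. Most other motifs were nearer to their background. CDX (TTTATNG) was in 15.4% of vehicle-only regions and 13.2% of shifted windows, the CCAAT box in 24.6% and 22.9%, KLF (GGGTGNGG) in 7.32% and 6.83%, FOX (TGTTTAC) in 1.95% and 3.17%, and YY1 (AAGATGGC) in 1.95% and 1.46%. All regions had these in 14.0%, 24.8%, 6.88%, 3.34% and 1.18%. The E-box CACGTG was in 17 vehicle-only regions (4.15%, interval 2.60 to 6.54), against 9 of the shifted windows (2.20%), 4.59% of shared, 3.66% of hormone-only and 3.16% of all regions, and its interval lay above the share in shifted windows. The NRF1 motif was in 3 vehicle-only regions, the CRE TGACGTCA in 1 and the HNF1 motif in none, and 0.254%, 0.254% and 0.0793% of all regions held them. Base composition moved with location. The median GC content was 46.3% over all vehicle-only regions, 55.7% at starts and 45.3% elsewhere. It was 47.3% in shared regions, 48.3% in hormone-only regions and 39.8% in regions of 1 vehicle list. Of these last, the regions of replicate 1 alone and of replicate 2 alone had 46.3%, the same as the vehicle-only regions, and those of replicate 3 alone had 39.3%. The part of base composition in the motif counts was not tested.

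The rule was then applied to 2 libraries of each group and the regions it chose were looked up in the pair of libraries left out, for each of the 9 ways to leave out 1 per group. If a region was in both vehicle lists and in neither hormone list, the left-out hormone library held a peak in 21.2% to 45.4% of cases, over 132 to 403 regions. The left-out vehicle library held one in 12.4% to 29.8%. The hormone library had the larger share in 7 of 9 pairs, the vehicle library in 1, and 1 was a tie. With the deepest pair left out, replicate 3 of each, 64 of 206 regions (31.1%, interval 25.1 to 37.7) had a hormone peak and 61 (29.6%, interval 23.8 to 36.2) a vehicle peak. With vehicle replicate 3 and hormone replicate 1 left out, 41 of 183 regions had a hormone peak and 41 a vehicle peak. With vehicle replicate 3 and hormone replicate 2 left out, it was 53 and 45 of 195. The lists of vehicle replicates 1 and 2 were shorter than every hormone list. In the pairs that left them out, the direction cannot be told apart from list length. The share of tags in peaks was lower in every vehicle library than in any hormone library. In no pair can the direction be told apart from that share.

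The same look-up for regions in both hormone lists and neither vehicle list gave another picture. The left-out hormone library held 57.7% to 87.7% of 6140 to 12256 such regions and the left-out vehicle library 7.33% to 35.03%, with the hormone share larger in 9 of 9 pairs. The left-out libraries are reused across pairs, so the 9 are not independent, and list lengths differ between groups. For the vehicle-chosen regions, the 2 largest shares, 45.4% and 44.7%, were of hormone replicate 3, the longest hormone list.

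**Figure D5:**
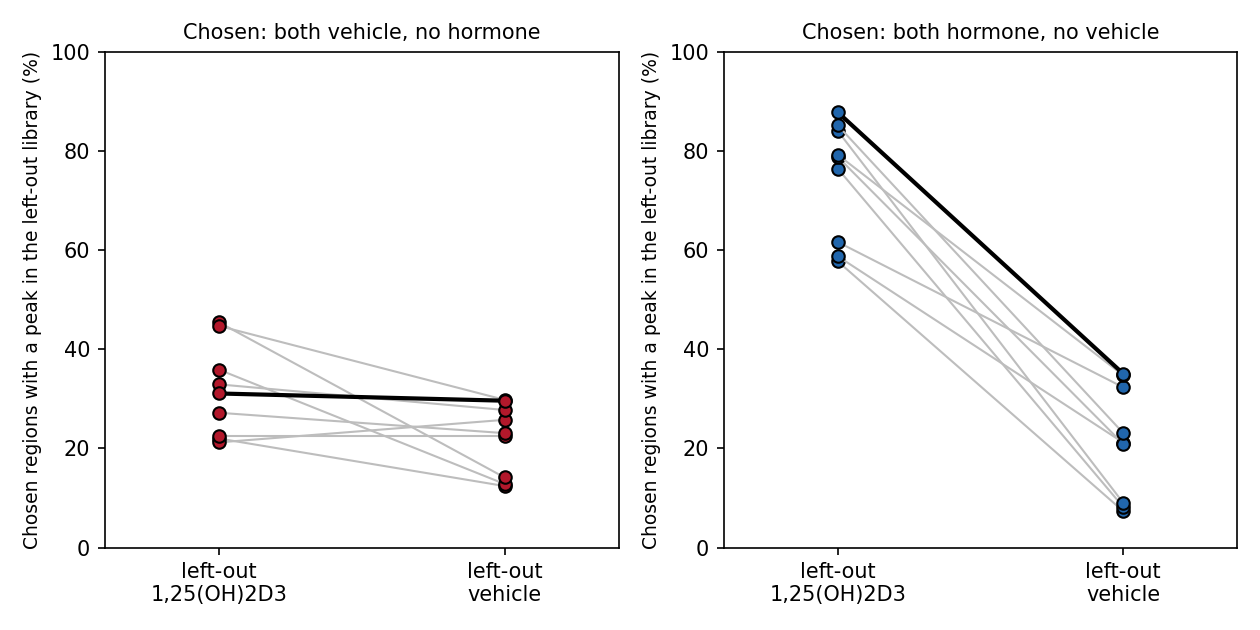
Share (%) of chosen regions with a peak in the left-out 1,25(OH)2D3 library (left point) and the left-out vehicle library (right point), 1 line per pair of left-out libraries, black for replicate 3 of both. Left panel, regions chosen as present with vehicle and absent with hormone, 21.2% to 45.4% and 12.4% to 29.8%. Right panel, regions chosen the opposite way, 57.7% to 87.7% and 7.33% to 35.03%.

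Of 22350 protein-coding genes, 904 (4.04%) had a vehicle-only region within 50 kb. Among 15 calcium transport genes 1 did, Calm2, which encodes calmodulin. Its region lay in an intron (chr17:87837806-87838069) at percentiles 27.02 and 53.2 in vehicle replicates 1 and 2, 3.87 kb from a hormone peak. None of 11 vitamin D genes and none of 18 phosphate and metal transport genes had one. The 1 of 15 is 6.67%, against 4.04% of all genes.

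Enterocyte genes had 2 of 20. Alpi, the intestinal alkaline phosphatase, had a region 3.45 kb upstream (chr1:89001478-89001788) at 86.0 and 90.7 in vehicle replicates 2 and 3. Slc15a1, the brush border peptide transporter, was the nearest gene of 3 vehicle-only regions, the most of any of the 387 nearest genes. Their mean percentiles were 70.1, 55.8 and 45.4, the first pair in its introns and the third in an intron of Dock9. Of the 387 genes, 22 were nearest to more than 1 region.

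Among 18 bile acid and xenobiotic genes 3 had one, the efflux pump gene Abcg2, the bile acid receptor gene Nr1h4 and the xenobiotic receptor gene Nr1i3. A hormone peak lay 0.091 kb from the Abcg2 region and 0.205 kb from the Nr1h4 region. Of 15 intestinal transcription factors 1 had one, Cebpa, 0.107 kb upstream of its start (74.2 and 86.6 in vehicle replicates 1 and 3). Counted by nearest start, with no limit of distance, it was 4 of these 15 (Cebpa, Gata4, Gata6 and Klf5), against 1.73% of all genes, 3 of the 20 enterocyte genes and 2 of the 18 bile acid and xenobiotic genes. The regions of Gata4 and Klf5 were 64.8 and 264.6 kb from the start, and a hormone peak lay 0.505 and 0.55 kb from them. The 20 genes of fatty acid and retinoid metabolism had 4, Adh1, Elovl6, Hsd17b2 and Ppara, but this list was drawn up after some of those regions had been seen and supports nothing. The other gene lists were also written anew after exploratory output had been seen, so their counts are a description only. The immune list had Ccl20 and Duox2 of 10, with a hormone peak 0.548 and 0.017 kb from their regions. The stromal list had Acta2 of 7. The region near Acta2 was nearest to Fas, 6.10 kb upstream of its start. No stromal list gene had a region within 10 kb or was the nearest gene of one. The lists for stem cell and Wnt (10 genes), goblet (6), Paneth (6), enteroendocrine and tuft (11), tight junction (10) and cell cycle genes (11) had none within 50 kb. By nearest start, 1 of the 10 stem cell and Wnt genes (Myc) and 1 of the 11 cell cycle genes (Cdkn1c) had one. With lists of 6 to 20 genes, a single region moves the share by more than 4.04% itself.

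Of 67 replication-dependent histone genes, 37 (55.2%) had a vehicle-only region within 50 kb and 12 (17.9%) within 10 kb. Of all protein-coding genes, 4.04% and 1.78% did. The histone genes lie in clusters and share few regions. They are those at Hist1h4c, Hist1h1c (chr13:23830509-23830955), Hist1h1d (chr13:23646795-23647082) and Hist2h2aa2 (chr3:96041629-96042102) as nearest genes, so the 37 genes stand for 4 of the 410 regions. The first 3 lay at starts, at 0.07, 0.056 and 0.038 kb. Within 50 kb, other families had 4 of 76 cytosolic ribosomal (5.26%), 5 of 77 mitochondrial ribosomal (6.49%) and 4 of 22 mitochondrial import genes (18.2%). There were also 2 of 46 proteasome (4.35%), 19 of 328 solute carrier (5.79%) and 8 of 1087 olfactory receptor genes (0.736%). The 8 olfactory receptor genes are neighbours, and 1 of them had a region within 10 kb. Of the 22 mitochondrial import genes, 1 (4.55%), Timm10, had a region within 10 kb, and 2 (9.09%) were the nearest gene of one. The region counted for Tomm40l, another of them, was also the one counted for Nr1i3.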

How the data were processed

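VDR ChIP-seq of 3 vehicle and 3 1,25(OH)2D3 libraries was used. Reads were aligned with Bowtie to mm9 and peaks called with HOMER, per the submitters' processing notes, with versions not given in the sources used here. Peak calling treated libraries separately, with 1 common input, a false discovery limit of 0.001 and at least 4-fold more tags than the input and the surrounding 10 kb, per the file headers. The input's label carries the 1,25(OH)2D3 dose, and its data were not analysed here. The deposited files hold peak positions in bases and a score of 1 for every peak. Because the score ranks nothing, the order of the authors' list was used, a choice that followed a look at the files. Which HOMER value it follows is not stated in the sources used here.

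Peaks were merged in Python 3.11.15 (numpy 2.4.6, scipy 1.17.1, pysam 0.24.0, matplotlib 3.10.9). Annotation was GENCODE mouse version 1 (Ensembl 65), NCBI build 37, and the nearest gene is the protein-coding gene whose outermost start is closest. The DR3 allowed 1 mismatch and other motifs none, within 100 bp of the centre. Merging and motif searches were tested on simulated data. Intervals of shares are 95% Wilson intervals and reflect counting error alone, and regions are not replicates. No test was made, since the rule used the contrast itself. The members, gene lists and motifs were chosen with earlier results of these data known. The gene lists were rewritten for this report after exploratory output had been seen. Named regions are all those of 3 vehicle lists, the 5 highest of each pair of vehicle lists, those with an exact DR3, and those near a calcium transport or vitamin D gene, of which some are not reported here. Others, such as Alpi, Slc15a1, Cebpa, Apob and the 4 farthest from a hormone peak, were named after their values were seen. Alternatives were leaving out each library, list lengths, merging distance, mismatches and distances.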

Additional observations from a re-analysis of the deposited data

How the results depend on the processing

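The number of vehicle-only regions depended on the lists. It ran from 104 to 679 when 1 library was left out, against 410: 679 when 1,25(OH)2D3 replicate 3 was dropped, and 220, 104 and 142 for vehicle replicates 1, 2 and 3. Fewer lists make the rule stricter for vehicle and looser for hormone. With all lists cut to the length of the shortest it was 1130, beside 1472 regions of the opposite rule. With the first 50% of each list it was 172. The DR3 share ran from 3.52% to 5.77% over left-out libraries, and was 8.67% with lists of equal length, 0.976% with 0 mismatches, 37.6% with at most 2 and 2.44% within 50 bp of the centre. The share at starts ran from 14.1% to 18.3% over left-out libraries, and was 27.9% with the first 50% of each list and 11.95% with protein-coding starts only. The median list percentile ran from 25.0 to 53.8 over left-out libraries, and was 67.3 with lists of equal length and 70.7 with the first 50% of each list, against 45.7. The GATA share ran from 17.3% to 28.6%, the HNF4 share from 2.11% to 4.81%, and the share within 10 kb of a hormone peak from 76.1% to 78.8%, in alternatives chosen after seeing the data. Genes with a region numbered 397 within 10 kb and 387 by nearest start, against 904 within 50 kb. Of 72 alternative values, 56 stayed near the reported one and 16 moved. Leaving out regions over 1 kb wide was among the settings but removed none of the 410, so its values could not differ. Near means within 1.5 times for counts and within the 95% Wilson interval for shares. For the list percentile it means within 29.2, the SD of its medians over the 3 vehicle lists. That limit is wide, and no list percentile moved by it. The cause of each move was not tested, apart from settings that change the definition. The labels number the libraries 1 to 3 in both groups without tying equal numbers. For that reason the numbers were not taken as pairs. Deviations of same-numbered libraries from their group means, over all regions, correlated at -0.11, 0.00094 and -0.18. These values cannot decide on pairing, since every region was included only through a peak in at least 1 list. Counted with replicate number as a block, a setting added after seeing the data, 581 regions had a vehicle peak without a hormone peak of the same number in at least 2 numbers, and 16048 the opposite. Without tag counts per peak, a weak hormone signal below the caller's threshold cannot be told apart from none.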
